A study of Homo sapiens with 24 samples.

Results

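Long intergenic non-coding RNAs (LINC genes) and named antisense long non-coding RNAs were followed across 12 groups of human triple-negative breast cancer cells. Members were all genes of the deposited expression table whose symbol starts with LINC and a number or ends in -AS and a digit, which gave 311 of 14114 genes, 100 with a LINC symbol and the rest antisense. MDA-MB-157, MDA-MB-231 and the line MDA-MB-468 are established lines. Cells of each were kept for 3 h with BETd-246 at 100 nM, BETi-211 at 1000 nM, thalidomide at 1000 nM, or DMSO, the solvent, at 0.05% v/v, with 2 libraries per group and 24 in all. The series names both DMSO and thalidomide as controls, so each compound was set against the 4 control libraries of the same line. The libraries were made from total RNA depleted of ribosomal RNA and primed at random, so they can hold unspliced RNA. Nothing in the labels says that the pair of libraries of a group came from separate cultures, so p-values measure the spread between these libraries, which may be technical.

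BET proteins read acetylated histones and help RNA polymerase II leave promoters and enhancers. BETi-211 is a small molecule that occupies the BET bromodomains, and BETd-246 joins a BET ligand to a cereblon ligand of the thalidomide type, so that the BET proteins are ubiquitinated and degraded. Long non-coding RNAs have no established open reading frame. They include RNAs that act in the nucleus on chromatin, cytoplasmic RNAs that bind proteins or microRNAs, hosts of small nucleolar RNAs, and transcripts whose transcription rather than product matters. An antisense RNA runs opposite to a protein-coding gene: it may cross the exons of that gene, lie in an intron, or start from the same promoter and run the other way. The doses of the compounds differ, so their values are given side by side, and the comparisons of both with the same control libraries are not independent of each other.

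Expression values are FPKM, fragments scaled to transcript length and to the size of the library. Where 3 values stand together, they are for MDA-MB-157 first, MDA-MB-231 second and MDA-MB-468 last, here called the line order. A change is a difference of log2(FPKM + 1), given with its standard error, and a fold is that difference turned back to a linear scale, so it understates the change of a gene with a low level. Genes were called at an adjusted p below 0.05, from limma across all 14114 genes with Benjamini-Hochberg adjustment. Each library pools many cells, so fewer cells that express a gene and less of its RNA per cell cannot be told apart. FPKM is a share of the RNA in a library, so a change in the total RNA of the cells is not seen in it.

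The depth was estimated at 42900000 to 64600000 fragments per library. Members made up 0.336 to 0.539% of the summed FPKM, and the pair of libraries of a group correlated at 0.978 to 0.996 over the members on the log2 scale. The mitochondrial share of the summed FPKM in MDA-MB-157 was 11.98 and 9.65% in BETd-246 libraries, 12.09 and 10.76% in BETi-211 libraries and 8.02 to 10.42% in control libraries. In MDA-MB-231 it was 14.9 and 15.1% in BETd-246 libraries, 13.4 and 14.28% in BETi-211 libraries and 9.79 to 13.99% in control libraries. In MDA-MB-468 it was 9.55 and 9.74% with BETd-246, 8.44 and 8.93% with BETi-211 and 7.18 to 8.33% in controls. The part of this shift in the results was not tested. EPCAM, an epithelial adhesion molecule, stood at 152.44 FPKM in MDA-MB-468 control libraries, against 1.75 in MDA-MB-157 and 3.52 in MDA-MB-231. The epithelial markers KRT8 and KRT18 were present in every line. They stood at 165.27, 159.54 and 1306.26 FPKM and at 302.54, 221.1 and 1148.22 FPKM in line order. Of the other listed epithelial markers, CDH1 stood at 0.41, 0.18 and 37.93 FPKM and KRT5 at 0.54, 0.0 and 751.95. KRT14 stood at 0.0, 0.0 and 24.7 FPKM, KRT7 at 0.43, 100.51 and 615.82, and KRT19 at 0.02, 73.17 and 1387.95. The mesenchymal marker VIM stood at 1995.56, 891.14 and 12.3 FPKM, FN1 at 228.03, 52.4 and 3.13, and ZEB1 at 6.6, 25.13 and 0.08. CDH2 stood at 21.63, 0.29 and 0.0 FPKM. MDA-MB-157 held markers listed for immune cells and fibroblasts, with CD14 at 56.6, 0.28 and 0.57 FPKM and COL3A1 at 354.09, 0.01 and 0.01. The immune genes PTPRC and CD3E and the hormone receptor genes ESR1 and PGR were not among the genes tested. ERBB2, also listed as a receptor gene, stood at 17.73, 18.55 and 12.38 FPKM.

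The kit named in the labels does not mark the strand, so reads from a member and from a gene on the opposite strand cannot be told apart where their exons cross. In the GENCODE 29 annotation 307 members had an entry, and 144 shared exonic bases with another gene of the table. Of the antisense members, 176 had their sense gene in the table. In 109 of these pairs exons overlapped, in 21 the gene bodies overlapped but not the exons, and in 44 they stood head to head without overlap. The annotation also puts 10 members among the protein-coding genes, such as LINC01420, there called NBDY, whose small protein binds the mRNA decapping machinery, and LINC00493, there called SMIM26. How reads that match several places in the genome were counted is not given in the sources used here, so members with near-identical copies are uncertain.

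Promoter windows of 4 members are shown, since transcription of these members starts there and the results turn on them: OSER1-AS1 and MAFG-AS1 each start beside their sense gene, LINC00641 rose in all 3 lines and LINC00472 changed differently with the compounds. The windows come from RefSeq, build GRCh38.p14, read in the direction of the member, and capitals mark letters of a motif. A full window runs 250 bases before to 50 after the start. The windows of OSER1-AS1 and MAFG-AS1 are cut where the oppositely transcribed sense gene begins.

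OSER1-AS1, chr20:44210792-44211009, + strand: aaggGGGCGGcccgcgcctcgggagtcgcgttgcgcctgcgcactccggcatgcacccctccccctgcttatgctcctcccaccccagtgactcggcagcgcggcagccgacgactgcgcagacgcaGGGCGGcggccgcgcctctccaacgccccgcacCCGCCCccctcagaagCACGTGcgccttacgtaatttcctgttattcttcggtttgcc
MAFG-AS1, chr17:81927715-81927878, + strand: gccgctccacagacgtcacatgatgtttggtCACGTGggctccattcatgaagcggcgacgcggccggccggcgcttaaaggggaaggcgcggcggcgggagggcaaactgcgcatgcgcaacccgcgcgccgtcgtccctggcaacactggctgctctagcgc
LINC00641, chr14:21206851-21207150, − strand: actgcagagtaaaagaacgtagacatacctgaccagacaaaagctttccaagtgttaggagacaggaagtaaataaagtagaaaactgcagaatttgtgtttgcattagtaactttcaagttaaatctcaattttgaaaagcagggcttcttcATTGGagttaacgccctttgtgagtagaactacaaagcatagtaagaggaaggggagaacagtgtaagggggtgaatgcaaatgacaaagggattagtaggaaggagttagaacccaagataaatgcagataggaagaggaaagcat
LINC00472, chr6:71420696-71420995, − strand: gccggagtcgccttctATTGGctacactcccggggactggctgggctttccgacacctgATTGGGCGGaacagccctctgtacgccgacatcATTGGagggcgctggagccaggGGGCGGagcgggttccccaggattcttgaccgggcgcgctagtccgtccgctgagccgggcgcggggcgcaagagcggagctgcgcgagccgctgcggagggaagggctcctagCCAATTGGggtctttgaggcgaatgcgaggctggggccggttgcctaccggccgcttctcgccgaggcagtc

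A set of 6 motifs was searched on both strands. In the OSER1-AS1 window the first transcribed base is the one at position 169, and the letters CACGTG, the palindromic E-box read by MYC and related proteins, stand at position 177, with the GC box GGGCGG at 5, 128 and 161. In the MAFG-AS1 window transcription starts at position 115 and CACGTG stands at position 32. The LINC00641 window is poor in G and C, at 39%, against 70.2% for OSER1-AS1 and 68.3% for MAFG-AS1, and of the searched motifs it holds CCAAT, at position 154. The LINC00472 window, at 68.7% G and C, holds GGGCGG at 63 and 115 and CCAAT at 17, 60, 93, 229 and 232, where the match at 60 overlaps a GC box and the last pair overlap each other; its RefSeq start lies 24 bases from the GENCODE one. Among 238 members with a full window, CACGTG was present in 10.9%, against 7.26% of all 35116 windows in the RefSeq table. Some of these windows lie far from the GENCODE start of the member, such as 85123 bases for LINC01588 and 60693 for LAMTOR5-AS1. TNRC6C-AS1 was given the window of TMC6, and KMT2E-AS1 and LINC01004 the same window. The members' shares therefore do not all describe the members' own starts. GGGCGG was present in 60.5% of the members' windows and 45% of all, CCAAT in 40.3% and 34.6%, TGACTCA (AP-1) in 7.14% and 4.95%, TGACGTCA (the cAMP response element) in 3.36% and 1.85%, and TATAAA in 6.3% and 11.5%. The median G and C content was 64.5% in the members' windows and 58.7% in all, so motifs rich in G and C meet a different base composition. These matches describe the letters and not bound factors.

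Members were weakly expressed. In control libraries the median member stood at 3.2, 1.84 and 2.1 FPKM in line order, beside 9.9, 8.73 and 9.79 FPKM for the median of all genes. At least 1 FPKM was reached by 280, 213 and 240 members, and at least 10 FPKM by 43, 30 and 33. LRRC75A-AS1, a host of small nucleolar RNAs also known as SNHG29, was the highest: it averaged 666 ± 25.7, 547.6 ± 40.4 and 535.2 ± 26.9 FPKM in line order (SD, n = 4 control libraries each), and alone held 25.6 to 36.2% of the members' summed FPKM. Next came LINC00657, known as NORAD, a cytoplasmic RNA that binds PUMILIO proteins, with 110.5 ± 5.88, 94.1 ± 4.31 and 62.8 ± 2.57 FPKM. MDA-MB-157 stood highest for both. For LRRC75A-AS1 the levels of MDA-MB-468 and MDA-MB-231 did not differ beyond their spread (log2 difference −0.03 ± 0.05, limma adjusted p = 0.575).

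The lines differed widely in their members before any BET compound was given, as the plot of control levels by line shows. Between MDA-MB-157 and MDA-MB-231, 277 members were called (background 87.4% of all genes), 209 higher and 68 lower in MDA-MB-157 (all genes 50.1% higher and 37.2% lower). Between MDA-MB-157 and MDA-MB-468 the count was also 277 (background 88%), with 189 higher and 88 lower. Between MDA-MB-468 and MDA-MB-231 it was 259 (background 86.2%), with 154 higher and 105 lower. For the pairs with MDA-MB-468 the shares of all genes by direction are not given, so these splits have no background. The median member differed by 0.52, 0.37 and 0.17 on the log2 scale for the pairs in the order given, beside 0.13, 0.04 and 0.08 over all genes. By at least 2-fold, 86 members were higher and 20 lower in MDA-MB-157 than in MDA-MB-231, beside 19% and 11.1% of all genes.

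ZNF667-AS1, known as MORT and found silenced by DNA methylation in many cancers, separated MDA-MB-231 from the others. It was listed at 26.9, 26.5, 27.7 and 25.9 FPKM in the MDA-MB-157 controls (DMSO, then thalidomide), at 23.5, 21.7, 23.1 and 20.3 in the MDA-MB-468 controls, and at 0 in 3 of 4 MDA-MB-231 controls with 0.0796 in the fourth. PAX8-AS1, antisense to the thyroid and kidney transcription factor gene PAX8, went the other way: its 4 controls held 0.0317 to 0.071 FPKM in MDA-MB-157 and 0.485 to 0.685 in MDA-MB-468, against 14.8 to 16.6 in MDA-MB-231. The difference of MDA-MB-157 minus MDA-MB-231 was −3.96 ± 0.05 on the log2 scale (limma adjusted p = 3.7e-20), with no overlap between lines.

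MDA-MB-157 alone carried LINC00473, a cAMP and CREB target, with 10.45 ± 0.655 FPKM, against 0.347 ± 0.0510 in MDA-MB-231 and a listed 0 in all 4 MDA-MB-468 controls. LINC00460, raised in several carcinomas, averaged 21.3 ± 1.30, 0.887 ± 0.134 and 0.344 ± 0.0806 FPKM in line order. LINC01436 averaged 14.43 FPKM in MDA-MB-157 and was listed at 0 in all 8 control libraries of the other lines. A level of at least 2 FPKM in 1 line with under 0.2 in both others was found for 10 members, 8 of them in MDA-MB-157 and 2 in MDA-MB-468, with 0 in MDA-MB-231. The same count over all genes is not given, so whether this split is particular to the members was not tested. The pair in MDA-MB-468 was LINC01213, at 3.953 FPKM, and TPRG1-AS2, at 2.928; besides LINC01436 the MDA-MB-157 members were LINC00221, PIK3CD-AS2, RHOXF1-AS1, TBX2-AS1, MSC-AS1, BBOX1-AS1 and LINC00839, at 3.541 to 8.612 FPKM.

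MDA-MB-468 carried LINC01133, at 26.05 ± 1.18 FPKM, against 0.277 ± 0.0561 in MDA-MB-157 and 0.103 ± 0.0459 in MDA-MB-231. AFAP1-AS1, antisense to the gene of an actin filament-associated protein and raised in many carcinomas, followed the ascending order MDA-MB-157 (0.214 ± 0.0280 FPKM), MDA-MB-231 (2.449 ± 0.171), MDA-MB-468 (15.27 ± 0.514), and each step was called (MDA-MB-157 minus MDA-MB-231 −1.51 ± 0.04, limma adjusted p = 8.99e-16). MDA-MB-231 carried LINC01605, at 9.339 ± 0.665 FPKM, and LINC00704, known as MANCR and linked to mitosis in breast cancer cells, at 10.99 ± 0.919 FPKM. LINC00704 stood at 1.044 ± 0.168 FPKM in MDA-MB-157 and 1.211 ± 0.0888 in MDA-MB-468, which did not differ beyond their spread (log2 difference −0.12 ± 0.07, limma adjusted p = 0.136).

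**Figure D1:**
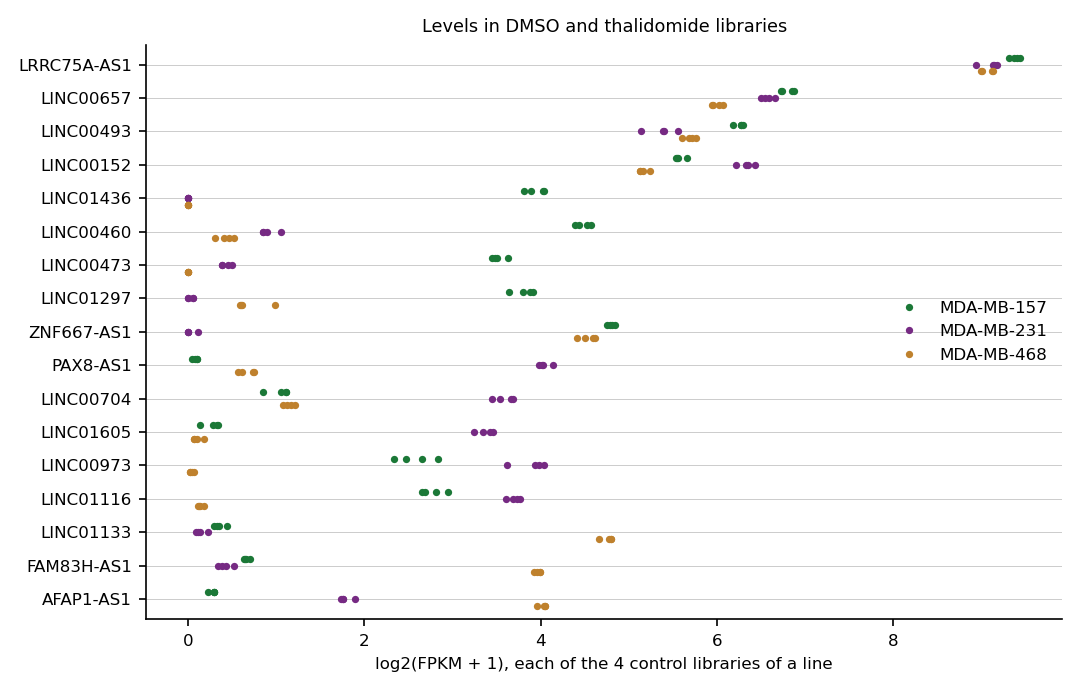
Levels of 17 members in the DMSO and thalidomide libraries, as log2(FPKM + 1) on the horizontal axis, with 1 point per library and 1 colour per line. LRRC75A-AS1 lies at the far right in all 3 lines, while LINC01436 and LINC00473 stand apart in MDA-MB-157, PAX8-AS1 and LINC01605 in MDA-MB-231, and LINC01133 in MDA-MB-468.

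Thalidomide alone called no member against DMSO in any line (background 0.184% of all genes in MDA-MB-157 and 0% in both others). At an unadjusted p below 0.05, limma gave 30, 22 and 23 members in line order, or 9.65%, 7.07% and 7.4%, beside 14.8%, 5.43% and 14% of all genes. Leaving out thalidomide replicate 2 of MDA-MB-231 gave 38 calls in that line (12.2%, beside 22.7% of all genes), and leaving out DMSO replicate 1 of MDA-MB-157 gave 9 (2.89%, beside 7.27%).

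With BETd-246, 88 members passed the test in MDA-MB-157 (28.3%, background 51.5%), 120 in MDA-MB-231 (38.6%, background 48.1%), and for MDA-MB-468 the count was 108 (34.7%, background 53.9%). As scaled in the deposited table, 24 were higher and 64 lower, 13 and 107, and 21 and 87 in line order, whereas quantile normalization turned these splits into 138 higher and 23 lower, 84 and 36, and 107 and 27, and median-of-ratios scaling into 88 and 40, 47 and 64, and 67 and 52. Over all genes, on the deposited scaling, 19%, 14.8% and 20.1% were called higher and 32.4%, 33.3% and 33.7% lower. Shares of all genes under the other scalings are not given, so the rescaled splits have no background beside them. The median member changed by −0.03, −0.12 and −0.08 on the log2 scale, beside −0.03, −0.05 and −0.03 over all genes. Median-of-ratios scaling moved those medians of all genes to 0.09, 0.08 and 0.09, and quantile normalization moved them to 0.07, 0.06 and 0.07. Changes of a size near these shifts have no settled direction. Column-total scaling gave 13, 8 and 10 members higher. Leaving out BETd-246 replicate 2 lowered the members called higher to 15 in MDA-MB-157 and to 7 in MDA-MB-231.

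The share called differed with level. Among the 122 members under 2 FPKM, 25.4%, 36.1% and 27% passed the test with BETd-246 in line order, beside 36%, 33.5% and 35.7% of the other genes in that range. Among the 58 members between 5 and 20 FPKM, 32.8%, 50% and 46.6% were called, beside 57.1%, 53.3% and 59% of other genes. LINC members were called in 36%, 34% and 37% of cases and antisense members in 24.6%, 40.8% and 33.6%.

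Changes of at least 2-fold on the log2(FPKM + 1) scale were rare among the members with BETd-246. That scale understates changes at low levels, and the median member stood at 3.2, 1.84 and 2.1 FPKM in controls, in line order. All genes had medians of 9.9, 8.73 and 9.79 FPKM, so the shares beside the members' counts are not matched for level. Higher by this much were 0, 1 and 0 members (background 0.255%, 0.411% and 0.333%), and lower were 1, 3 and 2 (background 4.2%, 4.56% and 6.11%). In all 3 lines 45 members fell, 21 of them LINC members (14.5% of the members, background 23.6%), and 3 rose (0.965%, background 8.59%), on the deposited scaling. Of these 45 members, 24 were still called lower in all 3 lines under median-of-ratios scaling and 11 under quantile normalization, while the 3 that rose remained under both and 2 of them under column-total scaling. Falls of at least 0.5 on the log2 scale, of which there were 12, 21 and 17 in line order, stayed called under quantile normalization in 12, 20 and 17 cases. Of the smaller falls, 52, 86 and 70 in number, 10, 15 and 10 stayed called under it and 4, 23 and 26 turned to a rise. The sole member lower by at least 2-fold on the log2(FPKM + 1) scale in every line was RBM12B-AS1.

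**Figure D2:**
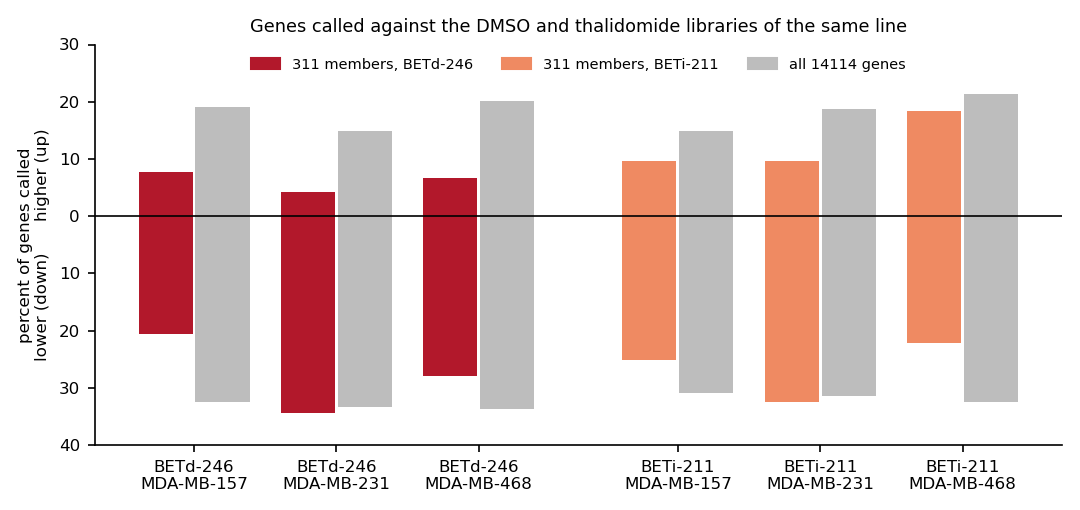
Percent of genes called higher (up) and lower (down) against the control libraries of the same line, on the deposited scaling, for the 311 members (coloured) and all 14114 genes (grey), with BETd-246 on the left and BETi-211 on the right. The members' bars for higher calls stay below the grey ones in each of the 6 comparisons. With BETd-246 the members' excess of lower over higher calls turned round under quantile normalization in all 3 lines. Under median-of-ratios scaling it turned round in every line but MDA-MB-231.

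RBM12B-AS1 (chromosome 8, 93740121 to 93740773, + strand, GRCh38) shares 90 exonic bases with RBM12B, the gene of an RNA-binding protein. In MDA-MB-157 it stood at 1.23 and 0.824 FPKM with BETd-246, 2.59 and 2.21 with BETi-211, 3.12 and 3.51 with thalidomide and 3.56 and 3.67 with DMSO. In MDA-MB-231 it stood at 0.756 and 0.39 with BETd-246, 1.83 and 1.26 with BETi-211, 2.34 and 2.64 with thalidomide and 2.54 and 2.76 with DMSO. MDA-MB-468 had 0.423 and 0.438 with BETd-246, 0.832 and 1.01 with BETi-211, 1.86 and 2.26 with thalidomide and 1.75 and 2.35 with DMSO. In every line the BETd-246 libraries were lowest, the BETi-211 libraries came next, and neither overlapped the controls. RBM12B-AS1 fell by 1.14 ± 0.12, 1.19 ± 0.12 and 1.09 ± 0.12 on the log2 scale with BETd-246 in line order (limma adjusted p = 4.38e-07, 2.61e-07 and 6.43e-07). With BETi-211 it fell by 0.39, 0.50 and 0.66 (limma adjusted p = 0.0103, 0.00197 and 0.000137). RBM12B itself fell by 0.91, 1.12 and 1.15 with BETd-246 and by 0.52, 1.14 and 0.87 with BETi-211, and the part of its reads in the antisense value was not tested.

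EGFR-AS1 (chromosome 7, 55179750 to 55188934, − strand) lies inside EGFR, the receptor gene that MDA-MB-468 carries in extra copies, and shares 186 exonic bases with it. In MDA-MB-468 it stood at 0.777 and 1.05 FPKM with BETd-246, 3.81 and 3.64 with BETi-211, 6.28 and 12.4 with thalidomide and 6.7 and 10.2 with DMSO. The control libraries spread widely, yet none came down to the BETi-211 libraries, which in turn lay above the BETd-246 ones. The change was −2.33 ± 0.19 on the log2 scale with BETd-246, or 5.02-fold lower (limma adjusted p = 1.98e-08), and −1.02 ± 0.19, or 2.03-fold lower, with BETi-211 (limma adjusted p = 0.000226). EGFR in the same libraries had 644 and 753 FPKM with BETd-246, 582 and 625 with BETi-211, 745 and 765 with thalidomide and 678 and 764 with DMSO. EGFR was not called with BETd-246 (−0.08 ± 0.07, limma adjusted p = 0.36) and fell by 0.29 with BETi-211. In MDA-MB-231 EGFR-AS1 had 0.0427 and 0.047 FPKM with BETd-246 and 0.392 to 0.895 in controls; its change of −0.61 ± 0.19 was called at a limma adjusted p of 0.0141, and the call was lost without BETd-246 replicate 1 (−0.60) or replicate 2 (−0.61). In MDA-MB-157 every library was under 0.14 FPKM. The BETd-246 change in MDA-MB-468 was larger than in MDA-MB-231 (difference −1.72) and than in MDA-MB-157 (difference 2.23 for MDA-MB-157 minus MDA-MB-468), both called; with a pseudocount of 0.1 the difference from MDA-MB-231 was −0.88 and not called.

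LINC00472, LINC00969, LINC01311 and LINC01465 fell with BETd-246 in all 3 lines and were called lower with BETi-211 in at most 1. LINC00472, on chromosome 6, has been reported at lower levels in aggressive breast tumours. In MDA-MB-157 it stood at 1.33 and 1.27 FPKM with BETd-246, 5.02 and 4.93 with BETi-211, 2.67 and 2.88 with thalidomide and 2.21 and 2.82 with DMSO. The BETd-246 libraries lay below every control and the BETi-211 libraries above every control. The changes were −0.66 with BETd-246 (limma adjusted p = 0.00137) and 0.72 with BETi-211 (limma adjusted p = 0.000697). In MDA-MB-231 it stood at 3.66 and 3.84 with BETd-246, 10.5 and 6.64 with BETi-211, 9.61 and 9.71 with thalidomide and 8.78 and 9.36 with DMSO, and in MDA-MB-468 at 2.29 and 2.72, 4.32 and 4.69, 4.34 and 6.49, and 4.42 and 5.94 in the same order. The BETi-211 libraries overlapped the controls there, and the BETd-246 ones did not. The BETd-246 changes were −1.12 and −0.83, both called, while those with BETi-211, −0.14 and −0.18, were not.

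LINC00969, which borders the mucin gene MUC20 on chromosome 3, had in MDA-MB-231 3.88 and 4.58 FPKM with BETd-246, 8.37 and 8.45 with BETi-211, 13.1 and 9.13 with thalidomide and 11.9 and 9.94 with DMSO. It fell by 0.57 ± 0.12, 1.19 ± 0.12 and 0.78 ± 0.12 with BETd-246 in line order (limma adjusted p = 0.000982, 4.36e-07 and 4.71e-05). With BETi-211 only MDA-MB-231 was called among the 3 lines (−0.34, limma adjusted p = 0.0276). LINC01311 had 0.758 and 0.878 FPKM with BETd-246 in MDA-MB-157, 2.03 and 1.86 with BETi-211, 2.33 and 2.25 with thalidomide and 2.47 and 2.14 with DMSO, and fell by 0.86, 0.80 and 0.35 in line order. Its BETd-246 change was larger in MDA-MB-157 than in MDA-MB-468 (difference −0.51, called). LINC01465 fell by 0.74, 0.80 and 0.31 with BETd-246, and its BETi-211 changes were −0.07, −0.18 and 0.32, of which the one in MDA-MB-468 was called (1.24 and 1.17 FPKM with BETi-211, against 0.629 to 0.978 in controls).

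Some members fell with both compounds, in values measured against the same controls. LINC00294 stood in MDA-MB-468 at 6.81 and 6.94 FPKM with BETd-246, 6.24 and 6.34 with BETi-211, 11.8 and 11.8 with thalidomide and 11.6 and 11.8 with DMSO. The treated libraries lay close together and far below the controls. Its changes were −0.36, −0.31 and −0.70 with BETd-246 and −0.37, −0.20 and −0.81 with BETi-211 in line order, all called; under quantile normalization the BETd-246 change in MDA-MB-231 was 0.01 and the others kept their sign. LINC00909, on chromosome 18, changed by −0.60, −0.39 and −0.51 with BETd-246 and −0.79, −0.50 and −0.55 with BETi-211. NCBP2-AS2, whose start lies 26 bases from that of NCBP2, a subunit of the nuclear cap-binding complex, had 11.8 and 11.1 FPKM with BETd-246 in MDA-MB-157, 14.6 and 15 with BETi-211, 18.4 and 20.4 with thalidomide and 20.2 and 18.7 with DMSO. It fell by 0.72, 0.42 and 0.34 with BETd-246, while NCBP2 was not called (0.08, 0.03 and 0.10). GENCODE lists NCBP2-AS2 as protein-coding.

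NORAD (LINC00657) also fell on the deposited scaling. In MDA-MB-157 it had 82.6 and 88 FPKM with BETd-246, 88.9 and 89.7 with BETi-211, 106 and 105 with thalidomide and 115 and 116 with DMSO. It fell with BETd-246 by 0.37 in MDA-MB-157 and by 0.42 in MDA-MB-468. In MDA-MB-231 the change of −0.15 was called, but median-of-ratios scaling gave 0.05, and without BETd-246 replicate 1 it was −0.13 and not called. With BETi-211 it fell by 0.30, 0.31 and 0.64.

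Of the other members tied to breast cancer, LINC00511, reported to act with the polycomb complex, had 20.3 and 23.2 FPKM with BETd-246 in MDA-MB-157, 20.6 and 21.9 with BETi-211, 31.4 and 31.6 with thalidomide and 36.6 and 34.2 with DMSO. Its changes were −0.60, −0.72 and −0.56 with BETd-246, all called. With BETi-211 they were −0.63, called, and 0.12 and 0.07, not called; in MDA-MB-231 the BETi-211 libraries, at 5.79 and 6.75 FPKM, overlapped the controls, at 4.85 to 6.27, and the BETd-246 ones, at 3.14 and 2.98, did not. LINC00152, known as CYTOR, fell with BETi-211 in MDA-MB-231 by 0.40 (58.8 and 61.1 FPKM, against 73.1 to 85.2 in controls) and in MDA-MB-468 by 0.26. In MDA-MB-157 its BETi-211 change of −0.18 was called, but not without BETi-211 replicate 1 (−0.16) or DMSO replicate 1 (−0.14). LINC00704 had 6.2 and 6.55 FPKM with BETi-211 in MDA-MB-231, against 9.87 and 11.8 with thalidomide and 10.6 and 11.7 with DMSO, a fall of 0.70 ± 0.09 (limma adjusted p = 4.81e-06). Its BETd-246 libraries there, at 10.7 and 10.3, lay within the controls. LINC01133 and CDKN2B-AS1, known as ANRIL, were called with neither compound in any line, although CDKN2B, the neighbouring cell-cycle inhibitor gene, fell by 0.45 with BETd-246 in MDA-MB-157 and rose by 1.17 with BETi-211 in MDA-MB-468. Outside MDA-MB-468 the low control levels of LINC01133 left little room for a fall to be called.

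ADAMTSL4-AS1 and LINC00641 rose in all 3 lines, as did LINC01420 by less. ADAMTSL4-AS1 (chromosome 1, 150560202 to 150574552, − strand) stood in MDA-MB-231 at 3.37 and 4.35 FPKM with BETd-246, 1.42 and 1.82 with BETi-211, 1.04 and 0.618 with thalidomide and 0.828 and 0.696 with DMSO. In MDA-MB-157 it stood at 1.7 and 1.62, 0.877 and 0.976, 0.362 and 0.488, and 0.458 and 0.431, and in MDA-MB-468 at 1.8 and 2.7, 2.88 and 3.17, 0.462 and 1.17, and 0.63 and 0.693, in the same order. Treated and control libraries did not overlap in any line. BETd-246 was highest in MDA-MB-157 and MDA-MB-231, and BETi-211 in MDA-MB-468. The rises were 0.89 ± 0.14, 1.43 ± 0.14 and 0.91 ± 0.14 with BETd-246 (limma adjusted p = 7.14e-05, 3.21e-07 and 5.14e-05), and 0.43, 0.55 and 1.23 with BETi-211 (limma adjusted p = 0.0216, 0.00418 and 1.7e-06). Of its exonic bases, 738 are shared with other genes, 736 of them with ADAMTSL4, the gene of a matrix glycoprotein that binds fibrillin. ADAMTSL4 rose by 0.79, 0.81 and 0.85 with BETd-246. MCL1, the neighbouring gene of an anti-apoptotic BCL2 relative, fell by 1.72, 1.70 and 1.47 with BETd-246 and rose by 0.31, 0.25 and 0.20 with BETi-211.

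LINC00641 (chromosome 14, 21200079 to 21206900, − strand) had in MDA-MB-231 4.12 and 4.23 FPKM with BETd-246, 4.44 and 3.1 with BETi-211, 1.94 and 1.78 with thalidomide and 1.63 and 1.42 with DMSO. In MDA-MB-468 it had 3.2 and 4.03, 4.05 and 4, 1.48 and 1.87, and 1.5 and 1.81, and in MDA-MB-157 it had 2.18 and 1.98, 3.14 and 2.88, 1.37 and 1.62, and 1.37 and 1.35, in that order. All treated libraries lay above all controls. It rose by 0.34, 0.95 and 0.79 with BETd-246 in line order (limma adjusted p = 0.00902, 6.87e-07 and 5e-06) and by 0.72, 0.81 and 0.92 with BETi-211. The BETd-246 rise was smaller in MDA-MB-157 than in MDA-MB-231 (difference −0.60, called; without BETd-246 replicate 2 of MDA-MB-157 −0.56, not called). LINC01420 rose by 0.27, 0.17 and 0.32 with BETd-246.

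**Figure D3:**
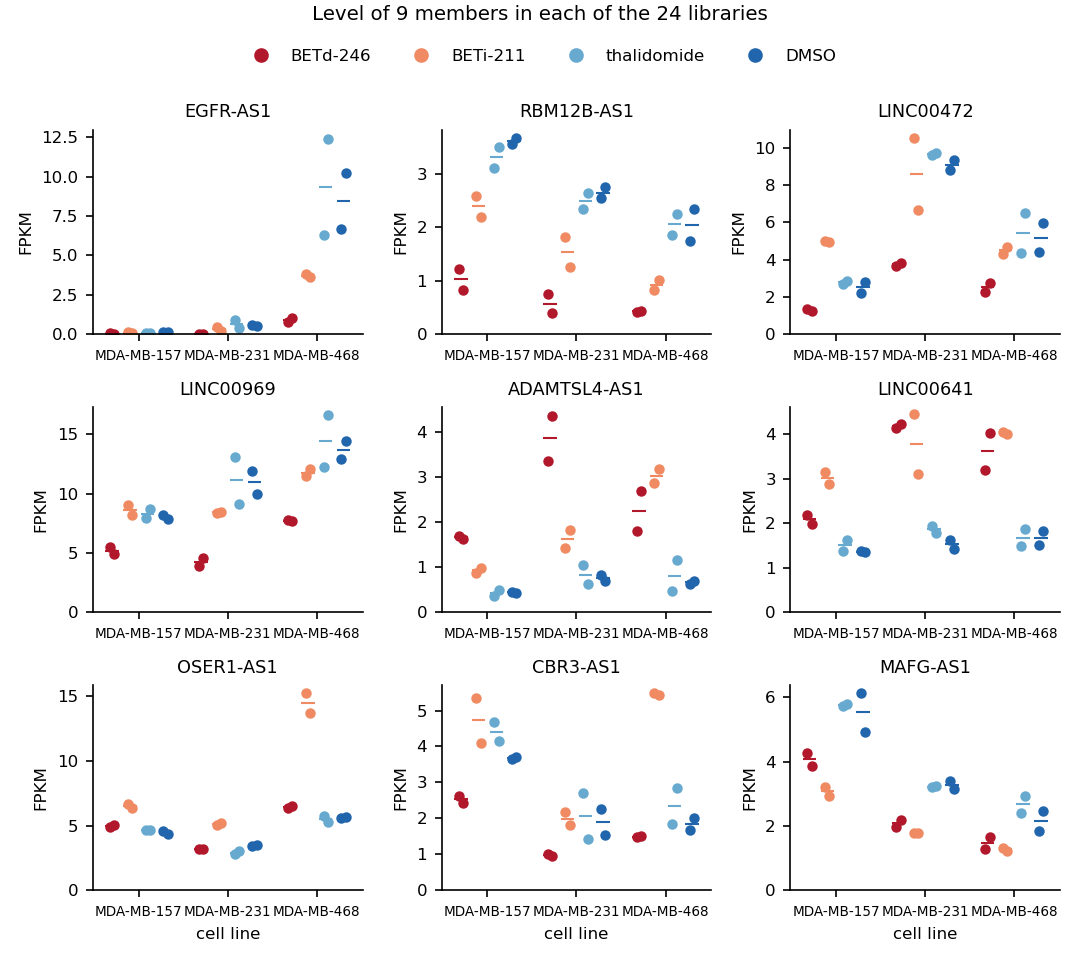
FPKM of 9 members in each of the 24 libraries, by line on the horizontal axis and by treatment in colour, with a bar at the mean of each pair. RBM12B-AS1 is lowest with BETd-246 in every line, EGFR-AS1 is highest in the MDA-MB-468 controls, and OSER1-AS1 and CBR3-AS1 stand out with BETi-211 in MDA-MB-468.

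With BETi-211, 108 members passed the test in MDA-MB-157 (34.7%, background 45.8%), 131 in MDA-MB-231 (42.1%, background 50.1%), and for MDA-MB-468 the count was 126 (40.5%, background 53.9%). The split was 30 higher and 78 lower, 30 and 101, and 57 and 69 in that order of lines; in MDA-MB-468 quantile normalization gave 78 higher and 53 lower, median-of-ratios scaling 74 and 55, and column-total scaling 33 and 89, so its excess of falls had no settled direction, and for MDA-MB-157 and MDA-MB-231 quantile normalization gave 48 and 68, and 39 and 75. Over all genes, on the deposited scaling alone, 14.9%, 18.7% and 21.3% were called higher and 30.9%, 31.4% and 32.5% lower. The median member changed by −0.06, −0.10 and −0.02, beside −0.03, −0.03 and −0.01 over all genes. Leaving out BETi-211 replicate 1 lowered the members called higher to 19 in MDA-MB-157 and 35 in MDA-MB-468, and leaving out replicate 2 lowered them to 18 in MDA-MB-231. At 2-fold or more on the log2(FPKM + 1) scale, 4 members rose and 1 fell, all of them in MDA-MB-468. The background, not matched for level, was 1.36% higher and 2.2% lower there. For MDA-MB-157 and MDA-MB-231 it was 0.921% and 1.35% higher and 0.914% and 1.47% lower. In all 3 lines 16 members rose (5.14%, background 8.26%) and 35 fell (11.3%, background 19.9%).

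OSER1-AS1 (chromosome 20; its window is the first shown above) starts 169 bases from OSER1, the gene of a protein induced by oxidative stress, and shares no exonic base with it. In MDA-MB-468 it stood at 6.37 and 6.51 FPKM with BETd-246, 15.2 and 13.7 with BETi-211, 5.74 and 5.29 with thalidomide and 5.6 and 5.64 with DMSO. In MDA-MB-157 it had 4.88 and 5.07, 6.64 and 6.36, 4.64 and 4.62, and 4.56 and 4.34, and in MDA-MB-231 3.16 and 3.16, 5.01 and 5.21, 2.77 and 3.05, and 3.43 and 3.51, in the same order. The BETi-211 libraries were highest in each line, apart from all others. It rose with BETi-211 by 0.44 ± 0.05, 0.55 ± 0.05 and 1.23 ± 0.05 in line order (limma adjusted p = 7.08e-07, 4.3e-08 and 2.18e-12). With BETd-246 the changes were 0.11 and −0.01, not called, and 0.18, called in MDA-MB-468 (limma adjusted p = 0.00326). OSER1 rose by 0.26 and 0.48 with BETi-211 in MDA-MB-157 and MDA-MB-231 and changed by 0.11, not called, in MDA-MB-468. It fell by 0.80, 0.58 and 0.79 with BETd-246: in MDA-MB-157 it had 17.4 and 18.2 FPKM with BETd-246, 37.5 and 38.6 with BETi-211, 31.8 and 30.3 with thalidomide and 31.8 and 32.7 with DMSO.

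CBR3-AS1, which shares 493 exonic bases with the carbonyl reductase gene CBR3, had 1.47 and 1.5 FPKM with BETd-246 in MDA-MB-468, 5.48 and 5.42 with BETi-211, 1.84 and 2.85 with thalidomide and 1.68 and 2.02 with DMSO. It rose there by 1.07 ± 0.15 with BETi-211, or 2.1-fold (limma adjusted p = 1.49e-05), while CBR3 rose by 0.26; in MDA-MB-157 and MDA-MB-231 the BETi-211 changes of 0.18 and 0.02 were not called. With BETd-246 it fell by 0.51 in MDA-MB-157 and 0.57 in MDA-MB-231, and CBR3 by 0.50 and 0.38. ASB16-AS1 rose with BETi-211 by 0.46, 0.69 and 0.90, with 7.43 and 7.07 FPKM in MDA-MB-468 against 3.13 to 4.12 in controls. LRP4-AS1, antisense to the gene of the agrin receptor LRP4, which is not among the genes tested, had 3.53 and 3.83 FPKM with BETi-211 in MDA-MB-157, 1.96 and 2.27 with BETd-246, 1.67 and 1.41 with thalidomide and 1.33 and 1.32 with DMSO. It rose by 0.95, 0.49 and 0.45 with BETi-211. IDI2-AS1 shares 643 exonic bases with IDI1, an isomerase gene of cholesterol synthesis. It had 4.05 and 4.14 FPKM with BETi-211 in MDA-MB-468, against 1.13 to 1.75 in controls, and rose by 0.47, 0.83 and 1.04, while IDI1 rose by 0.48, 0.93 and 0.94.

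AFAP1-AS1 had 24.5 and 25 FPKM with BETi-211 in MDA-MB-468, 14.3 and 15.2 with BETd-246, 15.4 and 15.6 with thalidomide and 14.5 and 15.5 with DMSO. It rose with BETi-211 by 0.30 in MDA-MB-231 and by 0.66 in MDA-MB-468 (limma adjusted p = 5.99e-09 in MDA-MB-468), whereas AFAP1, with which it shares 523 exonic bases, fell by 0.54 and 0.37. On the deposited scaling LINC00863 and LINC01128, named here after their values were seen, were called in opposite directions with the compounds. LINC00863 changed by −0.20, −0.25 and −0.13 with BETd-246 and by 0.50, 0.43 and 0.98 with BETi-211, all called, but its BETd-246 changes were 0.02, 0.06 and 0.17 under quantile normalization, so they have no settled direction. It stood in MDA-MB-468 at 2.49 and 2.73 FPKM with BETd-246, 7.12 and 6.54 with BETi-211, 2.91 and 3.03 with thalidomide and 2.9 and 3 with DMSO. LINC01128 changed by −0.35, −0.42 and −0.49 with BETd-246 and by 0.47, 0.24 and 0.46 with BETi-211; under quantile normalization its BETd-246 changes were −0.12, −0.10 and −0.26, of which the last was called. Set directly against each other at their unequal doses of 100 nM and 1000 nM, BETd-246 and BETi-211 libraries differed for 113 members in MDA-MB-157 (background 46.5%), 93 in MDA-MB-231 (background 41.7%) and 85 in MDA-MB-468 (background 43.3%), and without either BETi-211 library in MDA-MB-157 for 73 and 75.

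**Figure D4:**
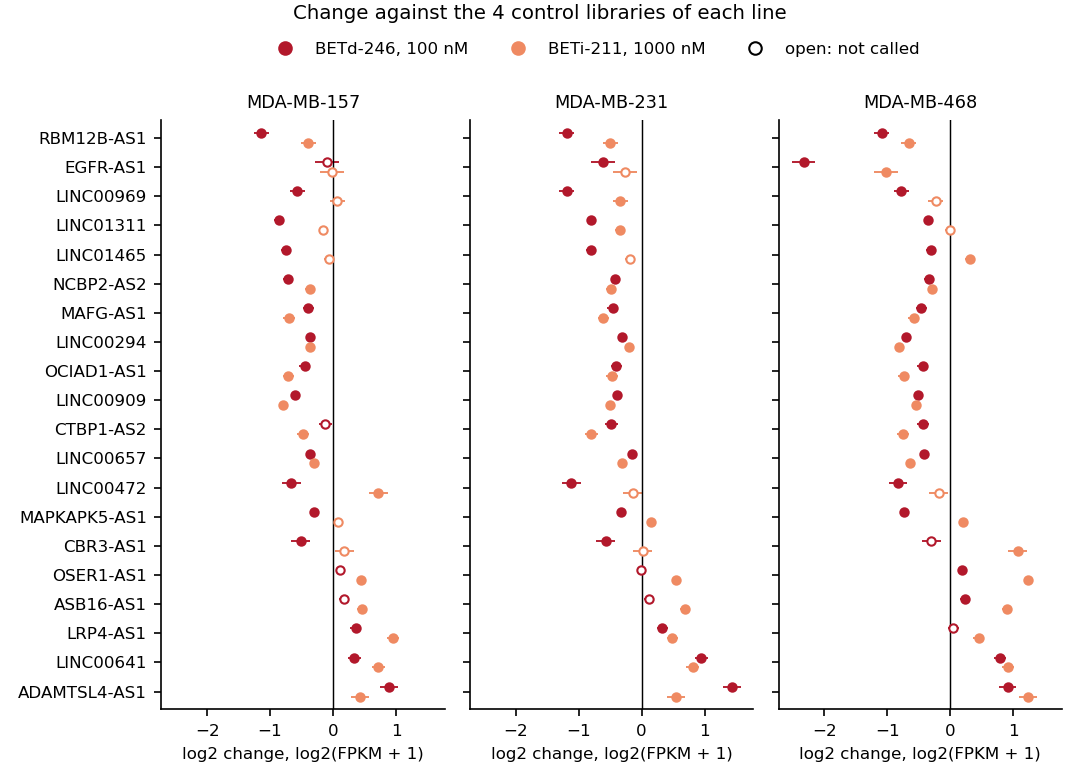
Change of 20 members against the 4 control libraries of each line, as differences of log2(FPKM + 1) with standard errors, for BETd-246 at 100 nM and BETi-211 at 1000 nM, where open points were not called. RBM12B-AS1 lies left of 0 with BETd-246 in all 3 panels, EGFR-AS1 reaches −2.33 in MDA-MB-468, and LINC00641 and ADAMTSL4-AS1 lie right of 0 throughout.

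Setting each antisense member beside its sense gene gave 176 pairs. With BETd-246 the antisense member and its sense gene both fell in 19, 24 and 27 pairs in line order, and both rose in 2, 2 and 4. The member fell while the sense gene rose in 6, 12 and 6 pairs, and rose while the sense gene fell in 6, 1 and 4. The sense gene alone was called in 71, 58 and 71 pairs and the member alone in 14, 36 and 19. In all, 59.1%, 55.1% and 63.6% of the sense genes and 26.7%, 42.6% and 34.1% of the antisense members of these pairs were called, beside 51.5%, 48.1% and 53.9% of all genes. Over the 176 pairs the changes of member and sense gene had a Pearson correlation of 0.08, 0.11 and 0.05, a description across genes that share libraries. The median change was −0.03, −0.15 and −0.08 for the members and −0.05, −0.05 and −0.08 for the sense genes. Because log2(FPKM + 1) shrinks changes at low levels, these calls and correlations do not show whether members responded less than, or apart from, their sense genes. With BETi-211 both fell in 18, 24 and 21 pairs and both rose in 4, 5 and 11, with correlations of 0.23, 0.17 and 0.22. With this compound the member fell while the sense gene rose in 3, 9 and 5 pairs, and the reverse held in 8, 6 and 12. The sense gene alone was called in 57, 55 and 51 and the member alone in 24, 33 and 23. Called were 51.1%, 56.2% and 56.8% of the sense genes and 32.4%, 43.8% and 40.9% of the antisense members. Over all genes the shares with BETi-211 were 45.8%, 50.1% and 53.9%.

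Members were also split by whether they share annotated exonic bases with another gene. Members without such bases may still lie in an intron of another gene, whose unspliced RNA these libraries can hold. With BETd-246, of 144 members with shared bases 8, 5 and 9 rose and 29, 50 and 39 fell in line order, and of 163 without, 16, 8 and 12 rose and 33, 56 and 48 fell, beside 19%, 14.8% and 20.1% higher and 32.4%, 33.3% and 33.7% lower over all genes. These counts stand on the deposited scaling and carry the reversal of the family's split given above.

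In 10 pairs member and sense gene fell together in all 3 lines with BETd-246: RBM12B-AS1, MAFG-AS1, MAPKAPK5-AS1, ZNF436-AS1, ZNRD1-AS1, NIFK-AS1, PSMD5-AS1, KMT2E-AS1, KCTD21-AS1 and PAXIP1-AS1 with their sense genes. Of these pairs, 2 stayed lower in all 3 lines under median-of-ratios scaling, those of MAFG-AS1 and RBM12B-AS1, and 1 under quantile normalization, that of RBM12B-AS1. MAFG-AS1 starts 115 bases from MAFG, the gene of a small Maf transcription factor, and shares no exonic base with it. In MDA-MB-157 it stood at 4.26 and 3.87 FPKM with BETd-246, 3.21 and 2.94 with BETi-211, 5.73 and 5.79 with thalidomide and 6.13 and 4.93 with DMSO. MDA-MB-231 had 1.97 and 2.18, 1.78 and 1.77, 3.19 and 3.23, and 3.39 and 3.13, and MDA-MB-468 had 1.27 and 1.66, 1.31 and 1.22, 2.39 and 2.94, and 1.84 and 2.47, in that order. Treated libraries lay below controls in every line. MAFG-AS1 fell by 0.39, 0.46 and 0.46 with BETd-246 and by 0.70, 0.61 and 0.58 with BETi-211, and MAFG by 0.89, 0.88 and 0.84 and by 0.86, 0.96 and 0.40. Under quantile normalization the BETd-246 changes of MAFG-AS1 were −0.17, −0.15 and −0.18, not called. MAPKAPK5-AS1, which shares 792 exonic bases with the gene of a stress-activated kinase, fell by 0.30, 0.33 and 0.73 with BETd-246, and MAPKAPK5 by 0.14, 0.12 and 0.13; under quantile normalization the falls of the member in MDA-MB-157 and MDA-MB-231 were −0.10 and −0.08 and not called. With BETi-211 it rose by 0.15 in MDA-MB-231 (MAPKAPK5 fell by 0.27) and by 0.20 in MDA-MB-468 (MAPKAPK5 fell by 0.28), and column-total scaling left neither rise called.

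In other pairs the member and its sense gene differed in call or direction with at least 1 compound. ZBED5, a gene derived from a DNA transposon, fell by 1.62, 1.20 and 1.54 with BETd-246, while ZBED5-AS1, which shares 538 exonic bases with it, changed by 0.15, 0.24 and 0.05, of which the value in MDA-MB-231 was called (without BETd-246 replicate 2 it was 0.21 and not called). In MDA-MB-157 ZBED5 had 5.64 and 5.71 FPKM with BETd-246 against 18.5 to 21.4 in controls, and ZBED5-AS1 8.58 and 9.87 against 8.02 to 8.32. OCIAD1-AS1 shares 218 of its 265 exonic bases, or 82.3%, with OCIAD1, a gene of a mitochondrial and endosomal protein. The member fell by 0.45, 0.40 and 0.44 with BETd-246, while OCIAD1 changed by 0.13, 0.18 and 0.09, of which the value in MDA-MB-231 was called; under quantile normalization the member's changes were −0.26, −0.09 and −0.10, of which the first was called. CTBP1-AS2 fell by 0.48, 0.80 and 0.75 with BETi-211 while CTBP1, a transcriptional corepressor gene, was not called; in MDA-MB-231 the member had 2.7 and 2.4 FPKM with BETi-211, 3.97 and 2.97 with BETd-246, 4.83 and 5.33 with thalidomide and 5.39 and 5.16 with DMSO. HNRNPU-AS1, beside the gene of a nuclear scaffold RNA-binding protein, fell by 0.79 and 0.60 with BETd-246 in MDA-MB-157 and MDA-MB-231 and changed by −0.37 in MDA-MB-468, not called, beside changes of HNRNPU of 0.00, 0.00 and 0.09, the last of them called. ZEB1-AS1 fell in MDA-MB-231, the line with the higher ZEB1, by 0.58 with BETd-246 and 0.63 with BETi-211, at 2.39 and 2.21 and 1.97 and 2.44 FPKM against 3.65 to 4.08 in controls. ZEB1 there changed by 0.05 with BETd-246, not called, and fell by 0.36 with BETi-211, together with the member.

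Pairs with opposite calls in all 3 lines on the deposited scaling, named after their values were seen, were 2 with each compound. With BETd-246 they were DARS-AS1, which fell by 0.26, 0.34 and 0.31 beside rises of 0.19, 0.19 and 0.16 in DARS, an aspartyl-tRNA synthetase gene (−0.10, −0.15 and −0.10 for DARS-AS1 under quantile normalization, not called), and ATP6V0E2-AS1, which fell by 0.33, 0.51 and 0.33 beside rises of 0.18, 0.15 and 0.26 in ATP6V0E2, a proton pump subunit gene. With BETi-211 they were THUMPD3-AS1 and NUP50-AS1. In MDA-MB-157 the BETi-211 call of THUMPD3-AS1 was lost without BETi-211 replicate 2, and that of NUP50-AS1 without BETi-211 replicate 1. THUMPD3-AS1, which shares 660 exonic bases with the tRNA methyltransferase gene THUMPD3, rose by 0.25, 0.36 and 0.63 while THUMPD3 fell by 0.65, 0.57 and 0.70. NUP50-AS1, whose start lies 60 bases from that of the nuclear pore gene NUP50, rose by 0.21, 0.39 and 0.65 while NUP50 fell by 0.57, 0.69 and 0.83. In MDA-MB-468 NUP50-AS1 had 6.76 and 6.91 FPKM with BETi-211 against 3.71 to 4.12 in controls, and NUP50 17.1 and 17.2 against 30 to 32.2.

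**Figure D5:**
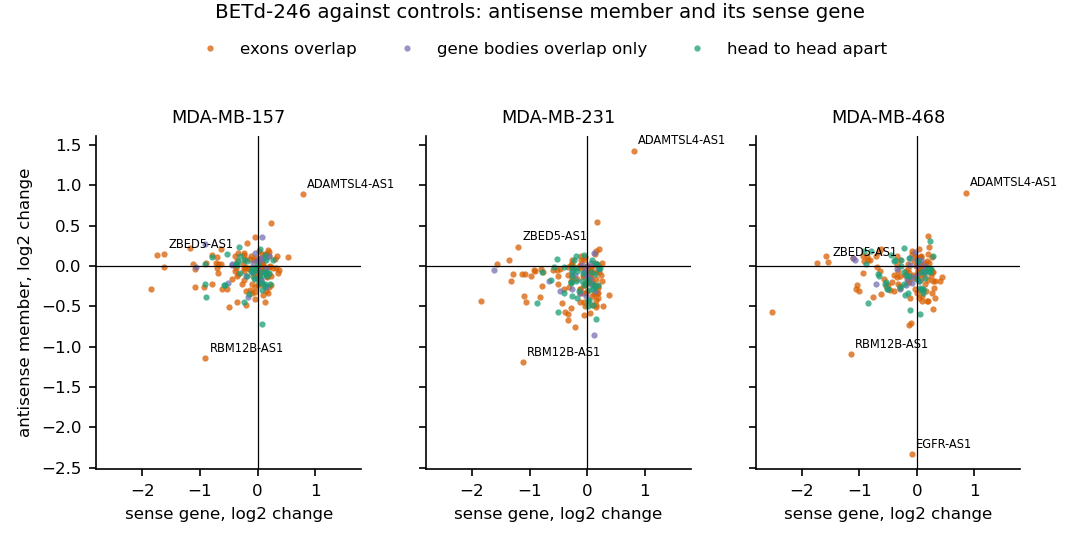
Change with BETd-246 of each antisense member (vertical) against that of its sense gene (horizontal), as differences of log2(FPKM + 1), for each line and coloured by how the genes lie. Points gather near 0 for the members while some sense genes spread to the left. The log2(FPKM + 1) scale pulls changes of weakly expressed genes, as many members are, towards 0, so the spreads cannot be compared. RBM12B-AS1 lies low on both axes, ADAMTSL4-AS1 high on both and ZBED5-AS1 near 0 beside a fallen ZBED5. In MDA-MB-468 EGFR-AS1 lies at −2.33 beside an EGFR near 0.

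Some members were called in opposite directions in different lines, 3 with BETd-246 (0.965%, beside 0.871% of all genes) and 5 with BETi-211 (1.61%, beside 3.11%). With BETd-246 they were LINC00324, TGFB2-AS1 and RAB30-AS1, and with BETi-211 they were LINC00460, PSMG3-AS1, MNX1-AS1, NOP14-AS1 and TNRC6C-AS1; these were named after their values were seen, and for LINC00324 and LINC00460 the calls were lost without single libraries (LINC00324 with BETd-246 in MDA-MB-231 0.20 without BETd-246 replicate 1 and 0.22 without replicate 2, LINC00460 with BETi-211 −0.12 in MDA-MB-231 as well as 0.09 in MDA-MB-468 without BETi-211 replicate 2). The size of the BETd-246 change differed between lines for 26 members between MDA-MB-157 and MDA-MB-231 (background 11.2%), 21 between MDA-MB-157 and MDA-MB-468 (background 13.1%) and 23 between MDA-MB-468 and MDA-MB-231 (background 13.3%). For BETi-211 the counts were 34, 47 and 56 in the same order (background 16.5%, 21.6% and 21.9%).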

How the data were processed

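The deposited table gives 1 value per gene and library. Its unit is not named in the sources used here; the values that the authors deposited were taken as FPKM, since summed values reached 454289 to 534179 per library and low values were multiples of a step that scaled with gene length, which also gave the estimated depth. Software named per the submitters' processing notes is bcl2fastq 2.17.1.14 and the aligner Bowtie 0.12.8, with GRCh38.p5 as the build; for the gene counter and annotation, the sources used here give no name. Only genes that the table holds could be members.

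All 14114 genes were fitted together with limma 3.58.1 in R 4.3.3 on log2(FPKM + 1), with 12 group means, a variance trend and 12 residual degrees of freedom. Controls of a line were the mean of its DMSO and thalidomide groups. The fit was tested on simulated data. Coordinates and exon overlaps come from GENCODE 29, and promoter windows from RefSeq. Members were named by size and level: for each line, the largest called changes among members of at least 1.5 FPKM whose treated libraries lay beyond all 4 controls, the highest members, the largest differences between lines, 21 members of a fixed list and their sense genes. The members, lists and rule were chosen with earlier results of these data known. Alternatives were other pseudocounts, filters, scalings and controls, a replicate block, lines fitted alone, and each library left out.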

Additional observations from a re-analysis of the deposited data

Results flagged for a closer look

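In the control libraries of a line, which pool DMSO and thalidomide, 10 of 157 groups of 4 values had 1 library far from the other 3 by Dixon's test, and chance alone flags about 1 in 20 groups. For AFAP1-AS1 the odd library in MDA-MB-231 was thalidomide replicate 1, at 2.704 FPKM against 2.34 to 2.38, and in MDA-MB-468 it was DMSO replicate 1, at 14.5 against 15.44 to 15.59. HIF1A-AS2 had 3.926 FPKM in thalidomide replicate 1 of MDA-MB-231, against 2.13 to 2.422. LINC00273 had 8.225 FPKM in that library, against 3.402 to 3.653, and 2.228 FPKM in DMSO replicate 2 of MDA-MB-157, against 3.936 to 4.167. In DMSO replicate 2 of MDA-MB-157, LINC00294 stood at 6.266 FPKM, against 5.872 to 5.929, and LINC01125 at 1.698, against 1.969 to 2.014. LINC00641 had 1.625 FPKM in thalidomide replicate 2 of MDA-MB-157, against 1.349 to 1.374. Thalidomide replicate 2 of MDA-MB-468 held 24.29 FPKM of LINC01133, against 26.42 to 26.76, and 1.898 FPKM of ZEB1-AS1, against 1.102 to 1.226.

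Of the members whose BETd-246 change differed between lines by limma's test of the difference, 26, 21 and 23 for the 3 pairs of lines, those with the largest positive and negative difference in each pair are given here, 5 members in all. EGFR-AS1 differed by 2.23 for MDA-MB-157 minus MDA-MB-468 and by −1.72 for MDA-MB-468 minus MDA-MB-231. The call of the latter was lost with a pseudocount of 0.1, and in MDA-MB-157 the low level left little room for a fall on this scale. LINC01311 differed by −0.51 for MDA-MB-157 minus MDA-MB-468, and LINC00641 by −0.60 for MDA-MB-157 minus MDA-MB-231. PRR7-AS1 differed by 0.84 for MDA-MB-157 minus MDA-MB-231, a call that was lost without any 1 of the 4 BETd-246 libraries (0.78 to 0.90). ALOX12-AS1 differed by 0.55 for MDA-MB-468 minus MDA-MB-231, and its call was lost without BETd-246 replicate 2 of MDA-MB-231 (0.51) or either BETd-246 library of MDA-MB-468 (0.56 and 0.55).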

How the results depend on the processing

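Scaling decided the members' split between higher and lower calls with BETd-246, and the cause was not tested. The counts that follow are of members alone, without the share of all genes at each setting. In line order (MDA-MB-157 first, MDA-MB-468 last), members higher numbered 24, 13 and 21 on the deposited scaling, 138, 84 and 107 with quantile normalization, 88, 47 and 67 with median-of-ratios scaling and 13, 8 and 10 with column-total scaling, and members lower were 23, 36 and 27 with quantile normalization and 40, 64 and 52 with median-of-ratios scaling. Members higher with BETi-211 were 48 in MDA-MB-157 with quantile normalization, and in MDA-MB-468 33 with column-total scaling and 37 against thalidomide alone. Thalidomide against DMSO gave 1 member in MDA-MB-157 with quantile normalization. Of 309 counts recomputed, 280 stayed within 1.5 times the reported one. Leaving out 1 library at a time gave, in line order, 15 to 22, 7 to 17 and 15 to 25 members higher and 48 to 69, 83 to 123 and 64 to 98 lower with BETd-246, 19 to 31, 18 to 32 and 35 to 56 higher and 58 to 74, 70 to 110 and 52 to 78 lower with BETi-211, 73 to 79, 65 to 72 and 62 to 73 between the compounds and 0 to 9, 0 to 38 and 0 with thalidomide; between lines every such count stayed within 1.5 times the reported one. Of 177 results for single members, 115 were called at every setting, and 11 values of the others changed sign: LINC00863 with BETd-246 in all 3 lines (0.02, 0.06 and 0.17, quantile) and in MDA-MB-468 (0.00, median-of-ratios), LINC00294 with BETd-246 in MDA-MB-231 (0.01, quantile), THUMPD3-AS1 with BETd-246 in MDA-MB-231 (0.01, median-of-ratios), AFAP1-AS1 with BETd-246 in MDA-MB-231 (0.11, quantile), TMPO-AS1 with BETd-246 in MDA-MB-231 (0.09, quantile) and MDA-MB-468 (0.04, quantile), FGD5-AS1 with BETd-246 in MDA-MB-468 (0.06, median-of-ratios) and LINC00657 with BETd-246 in MDA-MB-231 (0.05, median-of-ratios). Libraries of the same replicate number deviated together with correlations of −0.32 to 0.30, and the numbers were not taken to pair libraries. In MDA-MB-468 the DMSO, thalidomide and BETd-246 libraries correlated at 0.28 to 0.30 with each other. Their correlations with the BETi-211 libraries were −0.06 to 0.17, so a pairing in that line is not settled. A replicate block gave 22, 14 and 22 members higher and 69, 110 and 91 lower with BETd-246. With BETi-211 it gave 29, 30 and 54 higher and 75, 101 and 71 lower. It gave 118, 87 and 86 between the compounds, 0 with thalidomide, and 267, 264 and 248 between lines.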

Other observations

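Other long non-coding RNAs, whose symbols do not meet the rule for members, were followed in a list of 41 symbols, of which 29 are in the table. The list also held NORAD and CYTOR, which are other names of the members LINC00657 and LINC00152. With BETd-246, 5, 2 and 5 of the 29 were called higher and 6, 8 and 4 lower, in line order (MDA-MB-157 first, MDA-MB-468 last), and with BETi-211 4, 3 and 7 higher and 7, 9 and 8 lower. Over all genes 19%, 14.8% and 20.1% were called higher and 32.4%, 33.3% and 33.7% lower with BETd-246, and 14.9%, 18.7% and 21.3% higher and 30.9%, 31.4% and 32.5% lower with BETi-211. MIR17HG and HCP5, both lower with BETd-246, are named here outside any set rule, and none of those called higher is named. The median change over the 29 with BETd-246 was 0.03, −0.02 and 0.00 in line order. MIR17HG, the host of an oncogenic microRNA cluster and a MYC target, fell by 1.91, 2.06 and 1.98 on the log2 scale with BETd-246. That was further than any member but EGFR-AS1 in MDA-MB-468. HCP5, which lies among the MHC class I genes, fell by 0.84, 0.49 and 0.91 with BETd-246.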
